A study of Mus musculus with 30 samples.

Results

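The 10 histone deacetylase genes described here are Hdac1, Hdac2, Hdac3 and Hdac8 of class I, Hdac4, Hdac5, Hdac7 and Hdac9 of class IIa, Hdac6 of class IIb and Hdac11 of class IV. They were found by symbol in the count table, with no threshold on their levels or changes, and all 10 were among the 23736 genes tested of 55401 gene IDs in the count table. Polyadenylated RNA was sequenced from punches of both nuclei accumbens, part of the ventral striatum that handles reward and aversion, with 1 male C57Bl/6J mouse behind each of the 30 libraries. Mice had a tibial spared nerve injury (SNI), in which part of the sciatic nerve is cut to model neuropathic pain, or a sham operation, and 4 weeks later began 3 weeks of intraperitoneal injections, 2 a day. The SNI groups were 6 mice on tianeptine at 30 mg/kg, 4 on desipramine (DMI) at 15 mg/kg and 5 on saline. The sham groups were 6 mice on tianeptine, 4 on desipramine and 5 on saline, the control named by the design. Of the drugs, tianeptine is an agonist of the mu-opioid receptor used as an antidepressant, while desipramine, a tricyclic, inhibits the reuptake of noradrenaline.

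Histone deacetylases remove acetyl groups from lysines of histones and other proteins, and removal from histone tails is generally tied to lower transcription. Of the class I enzymes, 3 work in the nucleus within co-repressor complexes, Hdac1 and Hdac2 in Sin3, NuRD and CoREST and Hdac3 with Ncor1. Class IIa enzymes bind Mef2 transcription factors and leave the nucleus when calcium-dependent kinases phosphorylate them, which lets 14-3-3 proteins hold them in the cytoplasm. In the mouse accumbens, Hdac5 is known to limit behavioural responses to chronic cocaine and stress.

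The promoters of 3 members are shown because these members had an unadjusted p under 0.05 for desipramine against saline in SNI mice, and because their base composition differs. The sequences are the 250 bases before a RefSeq start on GRCm38.p6, given 5′ to 3′ on the strand of the gene. Capitals mark the GC box GGGCGG, the core of an Sp1 site, or its reverse complement. Hdac2 is read from chr10:36974294-36974543 on the plus strand, Hdac5 from chr11:102230173-102230422 on the minus strand and Hdac9 from chr12:34917096-34917345 on the minus strand.
Hdac2: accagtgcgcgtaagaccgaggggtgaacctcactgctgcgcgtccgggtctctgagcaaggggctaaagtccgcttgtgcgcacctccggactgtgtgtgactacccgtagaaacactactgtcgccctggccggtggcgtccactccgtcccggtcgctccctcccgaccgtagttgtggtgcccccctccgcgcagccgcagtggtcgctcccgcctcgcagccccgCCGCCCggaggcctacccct
Hdac5: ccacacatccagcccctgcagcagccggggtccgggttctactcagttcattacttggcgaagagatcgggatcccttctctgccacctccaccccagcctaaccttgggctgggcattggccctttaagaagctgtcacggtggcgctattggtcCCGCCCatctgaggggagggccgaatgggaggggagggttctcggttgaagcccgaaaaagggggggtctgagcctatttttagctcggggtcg
Hdac9: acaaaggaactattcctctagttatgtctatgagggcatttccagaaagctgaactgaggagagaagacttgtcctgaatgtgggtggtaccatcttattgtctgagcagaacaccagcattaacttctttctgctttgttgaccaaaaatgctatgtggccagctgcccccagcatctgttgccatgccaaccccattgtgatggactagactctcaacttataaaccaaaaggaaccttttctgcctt
The Hdac2 stretch holds 27 CpG dinucleotides and the Hdac5 stretch 12, each with 1 GC box. That of Hdac9 holds 0 CpG and no GC box. Over 32841 RefSeq promoter stretches of the same length, the median was 6 CpG and 32.7% held the GC box on either strand. Fewer CpG than in Hdac2 were found in 91.4% of these stretches, and fewer than in Hdac5 in 66.5%. The cyclic AMP response element TGACGTCA, its shorter core TGACG and the E-box CACGTG were searched on both strands, the core being part of the full element, and none was found in these 3 stretches. Among all promoter stretches, 1.55% held the full element, 17.8% the core and 6.02% the E-box. Another Hdac9 start, at chr12:34528890-34529139 on the same strand, held 2 CpG. The core was present in Hdac4, with 2 copies, and in Hdac11, with 1. Hdac1 and Hdac3 were not examined in this way.

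Levels between genes are compared as CPM per kilobase of exon, where CPM is counts per M (mega) counts of a library, scaled by TMM (trimmed mean of M values), and the exon length is the union of the gene's GENCODE M21 exons on mm10. Hdac11, the sole class IV enzyme and one that brain tissue is known to express strongly, was first in 30 of 30 libraries, with 61.03 ± 7.36 CPM per kilobase (SD over 30 libraries). Hdac5 followed with 22.52 ± 2.22, Hdac3 with 20.8 ± 2.08 and Hdac2 with 18.87 ± 1.38 CPM per kilobase, and these 3 exchanged places 2 to 4 between libraries. Hdac6, the cytoplasmic deacetylase of tubulin, was in place 5 in every library with 11.34 ± 0.93. Hdac7 with 8.32 ± 1.26, Hdac1 with 8.08 ± 0.86 and Hdac8 with 7.80 ± 0.76 CPM per kilobase exchanged places 6 to 8 and did not differ beyond their spread. Hdac4 with 3.16 ± 0.41 and Hdac9 with 1.91 ± 0.44 stood in places 9 and 10 in every library. With the longest transcript as the length, Hdac11 and Hdac5 kept the top places and Hdac4 and Hdac9 the last, while Hdac8 moved to place 5 and Hdac6 to place 7.

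**Figure D1:**
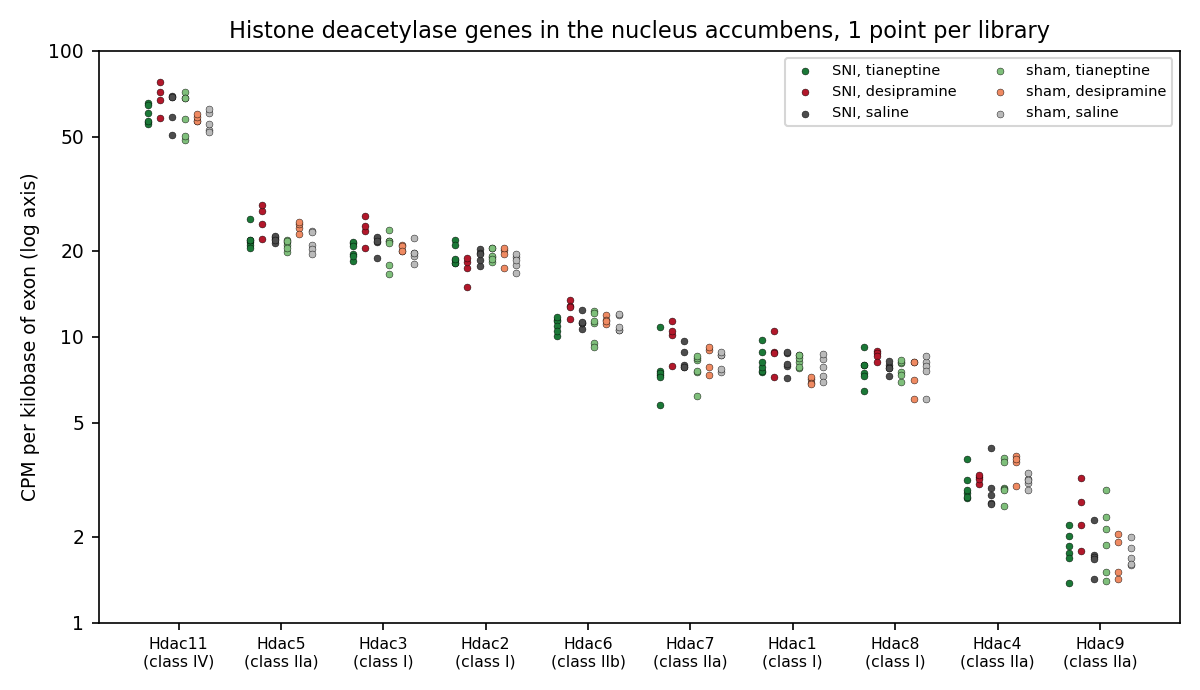
Level of each histone deacetylase gene as CPM per kilobase of exon on a log axis, 1 point per library, coloured by group and ordered by mean level. Hdac11 lies above every other member in each library, and Hdac4 and Hdac9 lie below all others.

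Summed over the 10 genes, Hdac11 made up 37.1% of the CPM per kilobase on average (33% to 41.1% over libraries), the 4 class I genes 34% (30.7% to 36.2%), the 4 class IIa genes 21.9% (19.1% to 25.5%) and Hdac6 6.93% (6.24% to 7.43%). The highest library exceeded the lowest by 1.46-fold for Hdac2 and Hdac6 and by 2.32-fold for Hdac9, the extremes among the members. The biological coefficient of variation was 6.92% for Hdac3, the lowest, 13.5% for Hdac7 and 17.3% for Hdac9, the highest, against 17.5% for the fit of all genes. Every member had at least 527 counts in every library.

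Total counts ran from 24.5 to 37.7 M in 24 libraries, replicates 1 to 4 of each group, and from 98 to 121 M in the other 6, which are replicates numbered 5 or 6 of mice on saline or tianeptine. The library names number these as separate series, treated here as library sets 1 and 2 with a term in every fit, and no desipramine library is in set 2. The accumbens label was checked on the medium spiny neuron genes Drd1, Drd2, Ppp1r1b, Adora2a and Rgs9. All 5 were present in every library, and each was lowest in SNI DMI replicate 2, where Drd1 was at 19.3 CPM against a highest value of 271 CPM and Rgs9 at 140 CPM against a highest value of 1400 CPM. The medium spiny neuron score, the mean centred log2 CPM of 15 markers, was -0.20, -2.46, -0.71 and 0.43 in SNI DMI replicates 1 to 4, against -0.02, 0.38, -0.38 and 0.60 in sham DMI replicates 1 to 4. Markers of neurons of the septum, which borders the accumbens, and of the hypothalamus gave a second score, over the 12 tested of 15. It was 0.55, 1.65, 1.55 and -0.38 in SNI DMI, against -0.25, -0.40, -0.43 and -0.34 in sham DMI. The summed level of those septal and hypothalamic markers ran from 321 to 827 CPM in SNI DMI and from 247 to 312 CPM in sham DMI. SNI DMI replicates 2 and 3 thus stand apart from the other desipramine libraries, and the members' differences that involve them are given also without them. In the same libraries the score of cortical excitatory neurons was -2.22, -1.57, -0.88 and 0.28 in SNI DMI replicates 1 to 4, against 1.94, 1.08, 2.27 and -1.26 in sham DMI replicates 1 to 4. In bulk tissue, fewer cells of a type and less RNA per cell cannot be told apart.

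SNI was set against sham on saline to ask what the injury changed in undrugged mice. No member passed the test at an adjusted p of 0.05, nor did any other gene (0% of 23736), and 2311 genes had an unadjusted p under 0.05. DESeq2 called 1 gene and limma-voom 0, no member among them. Hdac3, the catalytic subunit of the Ncor1 complex, was at 90.1, 86.6, 90.8, 87.3 and 76.3 CPM in SNI mice on saline, against 79.3, 89.8, 77.4, 79.3 and 73.0 CPM in sham mice on saline. The difference was 0.11 ± 0.06 (log2 fold change ± SE, adjusted p = 0.545), with 2 SNI libraries above the highest sham library. Hdac11 was at 264, 226, 267, 265 and 195 CPM in SNI and at 234, 242, 213, 200 and 204 CPM in sham, a difference of 0.15 ± 0.08 (adjusted p = 0.551). In SNI, 3 Hdac11 values lay above all those of sham and 1 lay below them. The septal score was 0.52, -0.81, 0.57, 0.34 and -0.73 in SNI saline replicates 1 to 5, against -0.71 to -0.08 in sham saline. Its part in these differences is not reported here. The other 8 members had log2 fold changes from -0.07 for Hdac4 to 0.06 for Hdac1. Over all 10, the 95% intervals lay between -0.32 and 0.33, and both of these bounds belong to Hdac9.

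On tianeptine, SNI against sham gave no passing member and no passing gene (0%), with 287 genes and no member at an unadjusted p under 0.05, and DESeq2 called 14 genes and limma-voom 0. Differences ran from -0.15 ± 0.14 for Hdac9, a class IIa gene, to 0.07 ± 0.06 for Hdac5, and the median over members was -0.01 against 0.00 over all genes. Hdac9 had a lowest value of 20.2, a median of 26.5 and a highest of 32.2 CPM in SNI mice on tianeptine, against 20.5, 29.3 and 42.8 CPM in sham mice on tianeptine. The highest sham value was replicate 5, a library of set 2. Its medium spiny score was -0.37, in a group range of -0.37 to 0.44. Its cortical score was 2.14, in a group range of -2.31 to 2.14. The part of these scores in that value is not reported here.

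On desipramine, Hdac1 and Hdac3 were higher in SNI than in sham mice, by 25.6% and 16.1%, and the other 8 members did not pass. The 2 of 10 members called stand beside 11.3% of all genes called in this comparison, 1713 higher and 969 lower. Higher fitted values were found for 8 members and lower ones for Hdac2 and Hdac4, with a median log2 fold change of 0.22 over members and 0.01 over all genes. An unadjusted p under 0.05 was found for 6 members and for 27.6% of all genes.

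Hdac1, a catalytic subunit of Sin3, NuRD and CoREST, was at 30.4, 36.1, 30.3 and 24.8 CPM in SNI DMI replicates 1 to 4, against 24.5, 24.9, 23.8 and 23.6 CPM in sham DMI. Replicates 1 to 3 of SNI lay above all sham values and replicate 4 among them. The mean was 30.4 ± 4.59 CPM in SNI and 24.2 ± 0.59 CPM in sham (SD, n = 4 each), and the log2 fold change was 0.33 ± 0.08 (95% interval 0.16 to 0.50, adjusted p = 0.0161). Without SNI DMI replicates 2 and 3, Hdac1 differed by 0.17 (adjusted p = 0.669). With the medium spiny and septal scores as covariates it differed by 0.11 (adjusted p = 0.707), and in neither fit was any gene called. The first of these fits keeps SNI DMI replicates 1 and 4 against 4 sham DMI mice, and so has less power. The septal score of the kept replicate 1 was 0.55, above all sham DMI values. Leaving out single libraries, the Hdac1 call was lost without SNI DMI replicate 2 (0.22, adjusted p = 0.162), SNI DMI replicate 3 (0.33, adjusted p = 0.0528) and sham DMI replicate 4 (0.30, adjusted p = 0.0537).

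Hdac3 was at 95, 107, 99.0 and 82.6 CPM in SNI DMI, against 80.9, 85.2, 83.9 and 80.8 CPM in sham DMI. The pattern over libraries was that of Hdac1, with replicate 4 of SNI inside the sham range. Its log2 fold change was 0.22 ± 0.06 (95% interval 0.08 to 0.35, adjusted p = 0.0324). It differed by 0.08 without SNI DMI replicates 2 and 3 (adjusted p = 0.722) and by 0.09 with the scores as covariates (adjusted p = 0.736). The Hdac3 call was lost in 6 of the fits that leave out a desipramine library and kept without SNI DMI replicate 4 (adjusted p = 0.00167) and sham DMI replicate 2. In library set 1 alone Hdac3 differed by 0.20, and without the library set term by 0.22, and it did not pass in either.

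Hdac2, the paralog that shares complexes with Hdac1, differed the other way. It was at 77.5, 67.0, 81.5 and 84.6 CPM in SNI DMI and at 90.3, 78.0, 87.4 and 91.2 CPM in sham DMI, a difference of -0.16 ± 0.07 (adjusted p = 0.141) and of -0.11 without SNI DMI replicates 2 and 3. Hdac8, a class I deacetylase that acts on the cohesin subunit Smc3, was at 43.2, 42.4, 41.5 and 39.6 CPM in SNI DMI, against 34.1, 39.6, 29.4 and 39.4 CPM in sham DMI. Its groups did not overlap, though the lowest SNI value and the highest sham value are equal to the digits given, and 9.96% of all genes had groups that did not overlap. The Hdac8 difference was 0.23 ± 0.09 (adjusted p = 0.108) and was 0.20 without SNI DMI replicates 2 and 3.

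Hdac9 had the largest fold change of the members in this comparison. It was at 32.2, 46.9, 38.8 and 26.2 CPM in SNI DMI, against 30.0, 20.9, 28.2 and 22.1 CPM in sham DMI, a difference of 0.51 ± 0.18 (adjusted p = 0.0604). Replicates 2 and 3 of SNI hold its highest values, and without them Hdac9 differed by 0.19 (adjusted p = 0.805). Hdac11 was at 258, 299, 277 and 224 CPM in SNI DMI, against 219, 219, 225 and 231 CPM in sham DMI, with 3 SNI libraries above all sham libraries. Its difference was 0.24 ± 0.09 (adjusted p = 0.0684), or 0.09 without SNI DMI replicates 2 and 3 and 0.01 with the scores as covariates. Hdac4 differed by -0.16 ± 0.08, Hdac5 by 0.09 ± 0.08, Hdac6 by 0.14 ± 0.07 and Hdac7 by 0.25 ± 0.14. Without SNI DMI replicates 2 and 3, the values of these 4 were -0.19 for Hdac4, 0.01 for Hdac5, 0.11 for Hdac6 and 0.09 for Hdac7.

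**Figure D2:**
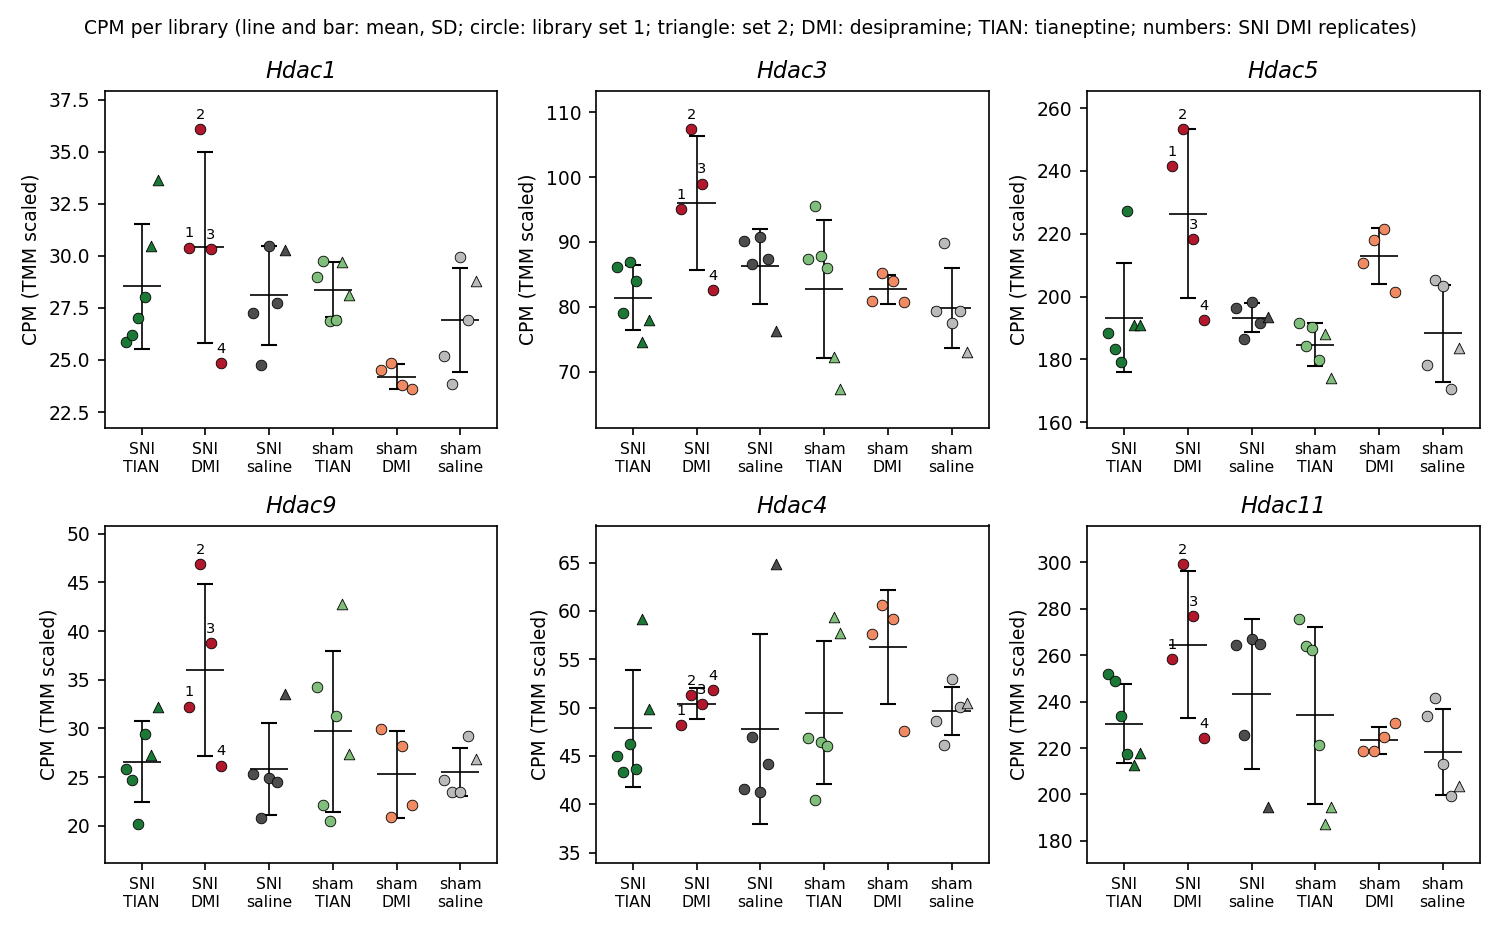
CPM of 6 members in each library, with the group mean and SD as a line and bar, groups left to right and SNI before sham. SNI DMI replicate 2 is the highest of its group for Hdac1, Hdac3, Hdac5, Hdac9 and Hdac11, and replicate 4 is the lowest of its group for the same 5 genes.

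**Figure D3:**
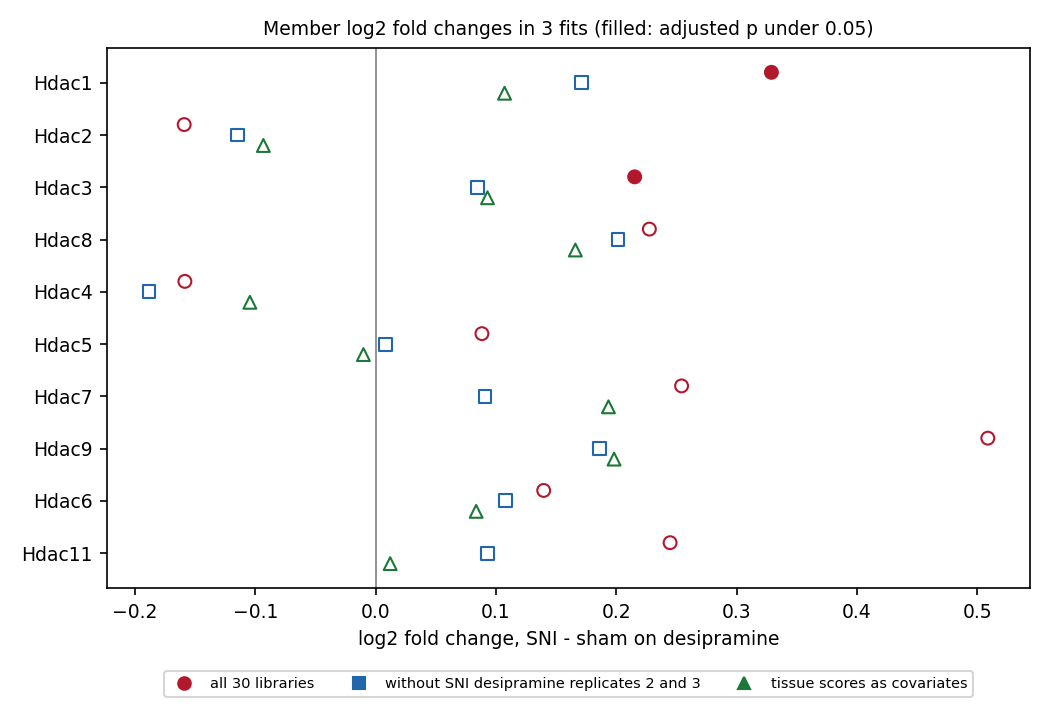
Log2 fold change of each member in SNI against sham on desipramine in the fit of all 30 libraries, without SNI DMI replicates 2 and 3, and with tissue scores as covariates. Filled symbols, with an adjusted p under 0.05, are present in the first fit alone, for Hdac1 and Hdac3.

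Averaged over the 3 treatments, SNI against sham called no member, against 1.84% of all genes. Fitted values were higher for 8 of 10 members, and 4 had an unadjusted p under 0.05, beside 22.6% of all genes. Hdac1 differed by 0.13 ± 0.04 (adjusted p = 0.0878), Hdac3 by 0.10 ± 0.03 (adjusted p = 0.0797), Hdac11 by 0.13 ± 0.05 (adjusted p = 0.106) and Hdac4 by -0.09 ± 0.04 (adjusted p = 0.202). These averages include the desipramine libraries given above, and without SNI DMI replicates 2 and 3 they were 0.08 for Hdac1, 0.06 for Hdac3, 0.08 for Hdac11 and -0.10 for Hdac4. DESeq2, which called more genes here than edgeR, called Hdac3, with a log2 fold change of 0.10 and an adjusted p of 0.0454. Without SNI DMI replicate 4, edgeR called Hdac1 (adjusted p = 0.0127), Hdac3 (adjusted p = 0.00729) and Hdac11 (adjusted p = 0.0199). That fit keeps replicates 2 and 3 and drops the SNI DMI library of highest medium spiny score, 0.43. The share of all genes called in it is not reported here.

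Tianeptine was set against saline in each surgery group to ask what the drug changed with and without injury. No member passed in SNI or in sham mice, no gene passed in either (0% each), and no member had an unadjusted p under 0.05. In SNI mice, differences ran from -0.13 ± 0.12 for Hdac7, a class IIa gene, to 0.03 ± 0.06 for Hdac2, with intervals between -0.37 and 0.32. Hdac7 was at 49.5, 38.9, 51.1, 73.2, 50.5 and 48.8 CPM in SNI mice on tianeptine, against 53.1, 54.0, 53.0, 59.9 and 65.3 CPM in SNI mice on saline. Of the 6 tianeptine libraries, replicate 4 lay above all saline libraries and the other 5 lay below all of them. Replicate 4 had the lowest medium spiny score of these 6, -0.48, where SNI saline ran from -0.41 to 0.39. The part of that score is not reported here. Without replicate 4, the Hdac7 difference was -0.26 (adjusted p = 0.964), and without SNI saline replicate 5 it was -0.04. In sham mice, differences ran from -0.08 ± 0.12 for Hdac7 to 0.17 ± 0.15 for Hdac9, with intervals between -0.32 and 0.48. Unadjusted p under 0.05 was found for 681 genes in SNI and 1623 in sham.

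Averaged over both surgeries, tianeptine called no gene (0%), with 1126 at an unadjusted p under 0.05, and the members' median was 0.00 on the log2 scale. The class I genes differed by -0.02 to 0.06, the class IIa genes by -0.11 to 0.09, Hdac6 by -0.02 ± 0.04 and Hdac11 by 0.04 ± 0.05. The tianeptine effect in SNI minus that in sham was tested directly and gave no passing gene (0%), with 997 at an unadjusted p under 0.05. For members that difference ran from -0.16 ± 0.21 for Hdac9 to 0.03 ± 0.10 for Hdac4. In these 4 tianeptine comparisons DESeq2 and limma-voom called no member, and DESeq2 called 1 gene in each but the last, where it called 0, as limma-voom did in all.

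Desipramine was set against saline in sham mice. No member and no gene passed (0%), while 2 members and 1810 genes had an unadjusted p under 0.05, and DESeq2 called 22 genes and limma-voom 0. Both of these members, Hdac4 and Hdac5, are class IIa repressors of Mef2. Hdac4 was at 57.6, 60.6, 59.1 and 47.6 CPM in sham mice on desipramine, against 48.6, 46.1, 52.9, 50.1 and 50.4 CPM in sham mice on saline. Desipramine replicates 1 to 3 lay above all saline values and replicate 4 inside their range, and the difference was 0.24 ± 0.08 (adjusted p = 0.547). Hdac5 was at 211, 218, 221 and 201 CPM on desipramine, against 178, 205, 203, 171 and 184 CPM on saline, with 3 desipramine values above all those of saline. The difference was 0.17 ± 0.07 (adjusted p = 0.597). With the medium spiny and septal scores as covariates, the values were 0.22 for Hdac4 and 0.14 for Hdac5. The cortical score was not a covariate in that fit. It was 1.94, 1.08, 2.27 and -1.26 in sham DMI replicates 1 to 4, against 0.33 to 1.35 in sham mice on saline. Its part in these differences was not tested.

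In SNI mice, desipramine against saline gave no passing member or gene (0%), and 3 members and 17.5% of genes had an unadjusted p under 0.05, while DESeq2 called 555 genes and limma-voom 0. This comparison shares the SNI DMI libraries with that of SNI against sham on desipramine. Hdac9 was at 32.2, 46.9, 38.8 and 26.2 CPM on desipramine, against 25.3, 20.8, 24.9, 24.5 and 33.6 CPM on saline, where replicate 5, of set 2, is the highest. The fitted difference was 0.55 ± 0.17 (adjusted p = 0.113) and was 0.24 without SNI DMI replicates 2 and 3. Hdac5 was at 241, 253, 218 and 192 CPM on desipramine, against 196, 186, 198, 192 and 193 CPM on saline. Desipramine replicates 1 to 3 lay above all saline values, with a difference of 0.22 ± 0.07 (adjusted p = 0.13), or 0.15 without replicates 2 and 3. Hdac2 was at 77.5, 67.0, 81.5 and 84.6 CPM on desipramine and at 82.8, 90.4, 87.7, 87.1 and 78.9 CPM on saline, a difference of -0.15 ± 0.07 (adjusted p = 0.249). The Hdac2 difference was -0.10 without replicates 2 and 3. Values with the tissue scores as covariates are not reported here, nor for the average over surgeries and the difference between surgeries given below. Without SNI DMI replicate 4, edgeR called Hdac3 (adjusted p = 0.046), Hdac5 (adjusted p = 0.0144) and Hdac9 (adjusted p = 0.0146). That fit keeps replicates 2 and 3. It drops the SNI DMI library of highest medium spiny score, 0.43, and lowest septal score, -0.38. The share of all genes called in it is not reported here.

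Averaged over both surgeries, desipramine called 7 genes (0.0295%) and no member. Hdac5 differed by 0.20 ± 0.05 (adjusted p = 0.172), Hdac4 by 0.20 ± 0.06 (adjusted p = 0.199) and Hdac9 by 0.30 ± 0.12 (adjusted p = 0.325). These 3 of the 4 class IIa genes were the members with an unadjusted p under 0.05, beside 12.5% of all genes, and Hdac7 differed by 0.12 ± 0.09. DESeq2, which called more genes here than edgeR, called Hdac5, with an adjusted p of 0.0447. The edgeR fit without SNI DMI replicate 4 also called Hdac5 (adjusted p = 0.0305). The share of all genes called in that fit is not reported here. Without SNI DMI replicates 2 and 3, the differences were 0.16 for Hdac5, 0.19 for Hdac4 and 0.15 for Hdac9, with unadjusted p of 0.00895, 0.0109 and 0.26 in that order.

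The test of whether desipramine differed from saline unequally in SNI and sham mice called no gene (0%), with 12.3% at an unadjusted p under 0.05, and DESeq2 called 100 genes and limma-voom 0. The members with an unadjusted p under 0.05 were Hdac9 at 0.50 ± 0.24 (adjusted p = 0.395), Hdac1 at 0.27 ± 0.11 (adjusted p = 0.35) and Hdac2 at -0.22 ± 0.09 (adjusted p = 0.361). Without SNI DMI replicates 2 and 3, these were 0.18 for Hdac9, 0.11 for Hdac1 and -0.17 for Hdac2. For Hdac1, desipramine against saline was 0.14 ± 0.08 in SNI mice and -0.13 ± 0.08 in sham mice.

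**Figure D4:**
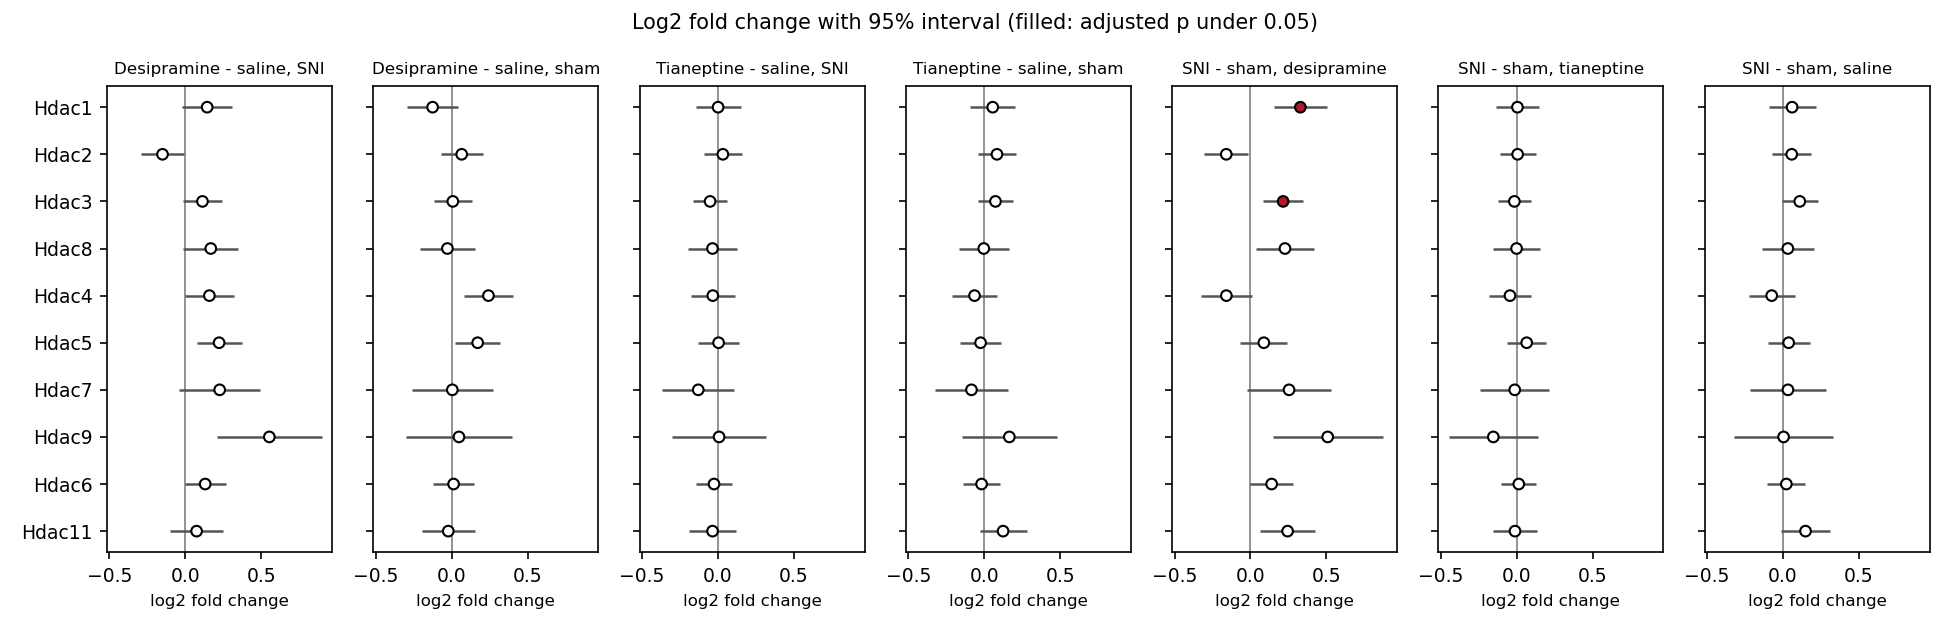
Log2 fold change of each member with its 95% interval in 7 comparisons, members ordered by class from I to IV. Filled points pass at an adjusted p under 0.05 and are limited to Hdac1 and Hdac3 in SNI against sham on desipramine.

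The library set was associated with the level of 5 members. Library set 2 against set 1 was called for 32.3% of all genes. In set 2, Hdac4 was higher by 0.33 ± 0.06 (log2 fold change ± SE, adjusted p = 3.3e-05) and Hdac9 by 0.31 ± 0.12 (adjusted p = 0.0456). Lower in set 2 were Hdac11 at -0.27 ± 0.06 (adjusted p = 0.000996), Hdac3 at -0.22 ± 0.04 (adjusted p = 0.000276) and Hdac6 at -0.13 ± 0.05 (adjusted p = 0.0313). In group means of CPM this set difference is not removed, while the fold changes above carry a term for it. Counting could also touch genes that share exons with another gene. For Hdac4, 22.4% of its exon bases lie in the lincRNA gene Gm26720 on the opposite strand, and for Hdac11, 15.4% lie in Gm44002 on the opposite strand. The strand setting of the counting is not given in the sources used here, so reads of these stretches cannot be assigned to a strand with certainty.

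Each member's log2 CPM was also set against 4 marker scores over the 30 libraries, 40 relations in all. Permutation p was adjusted by Benjamini and Hochberg over the 40. Of these, 15 had an adjusted p under 0.05. Hdac11 had the closest relation, with the septal and hypothalamic score, with Pearson r = 0.832 and Spearman rho = 0.782 (permutation p = 1e-05 for each, the smallest that 100000 permutations can give, adjusted p of r = 4e-04). It was 0.79 without SNI DMI replicates 2 and 3, the libraries farthest from the median score, 0.868 within library set 1 and 0.791 within set 2. Hdac3 with the same score had r = 0.692 and rho = 0.615 (permutation p = 2e-05 and 0.00038), 0.507 without those libraries, 0.727 within set 1 and 0.365 within set 2. Hdac1 and Hdac6 also passed with this score by r, at 0.562 and 0.505 (permutation p = 0.00124 and 0.00483). By rank they did not pass, with rho = 0.455 and rho = 0.468 (adjusted permutation p of rho = 0.0551 for each). Without SNI DMI replicates 2 and 3, r was 0.382 for Hdac1 and 0.352 for Hdac6.

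The medium spiny neuron score passed with 7 members. Hdac9 had r = -0.712 and rho = -0.601 (permutation p = 3e-05 and 0.00062), -0.555 without SNI DMI replicates 2 and 3, -0.776 within set 1 and -0.733 within set 2. Hdac5 had r = -0.67 and rho = -0.561 (permutation p = 1e-04 and 0.00156), -0.462 without those libraries, -0.689 within set 1 and -0.703 within set 2. Hdac1, at r = -0.653, and Hdac7, at r = -0.614, also had negative values, of -0.476 and -0.446 without those libraries. Hdac2 was the one member with a positive passing relation, at r = 0.581, yet r was 0.212 without SNI DMI replicates 2 and 3, and 0.583 within set 1 and 0.845 within set 2, which holds no desipramine library. The relations of Hdac3, with r = -0.516 and -0.123 without them, and of Hdac11, with r = -0.433 and -0.101 without them, rest on those libraries. Their part in the fold changes was not tested beyond the fits with covariates given above.

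**Figure D5:**
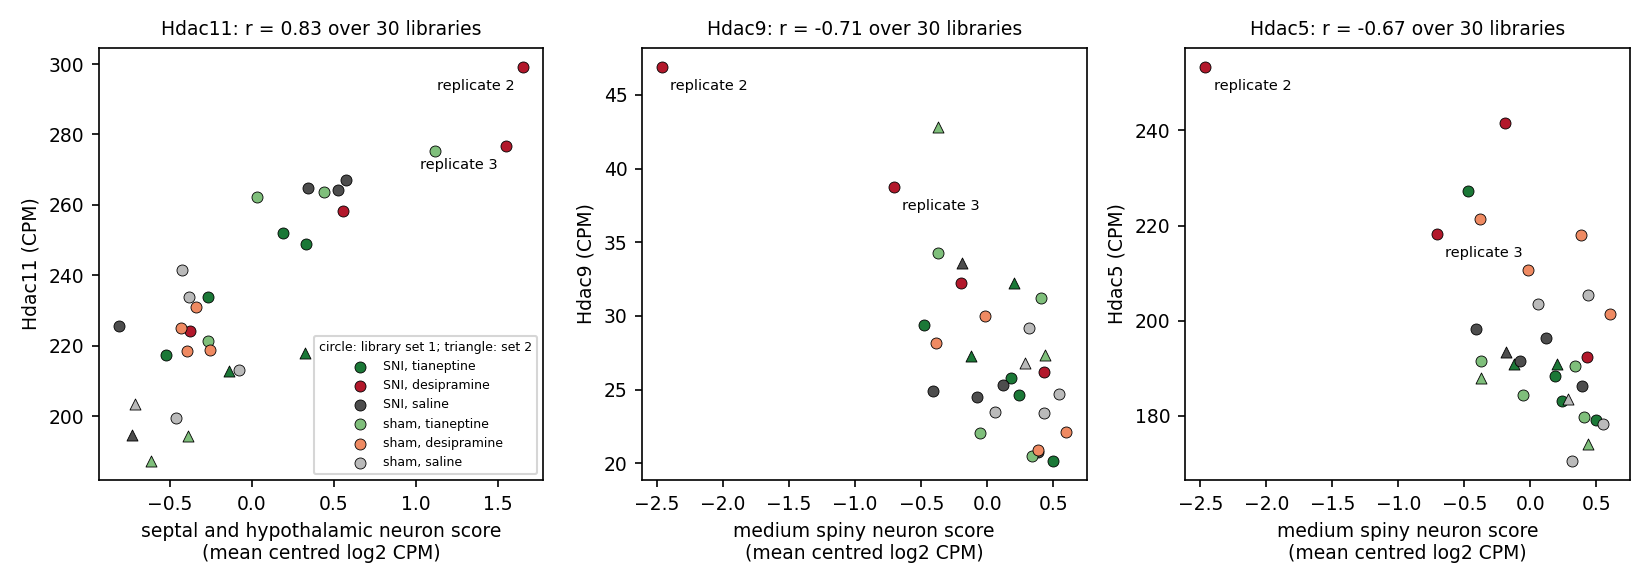
CPM of Hdac11 against the septal and hypothalamic neuron score, and of Hdac9 and Hdac5 against the medium spiny neuron score, 1 point per library. Hdac11 is higher where the score is higher, with r = 0.832 for its log2 CPM. SNI DMI replicate 2 lies far to the left of all others on the medium spiny score, at -2.46.

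The genes that work with these enzymes were read from 6 lists, and all of the listed genes were tested. In SNI against sham on desipramine, 11 of them passed, where 11.3% of all genes did. Among the 32 partners and kinases of class IIa, 4 fell and none rose. Over all 23736 genes, 969 were called lower and 1713 higher. Mef2d, a transcription factor that class IIa enzymes repress, fell by 0.42 ± 0.09 on the log2 scale (adjusted p = 0.00861). The calcium and calmodulin kinase gene Camk2a fell by 0.77 ± 0.22 and Camkk2, which encodes an upstream kinase, by 0.75 ± 0.23. Mark2, a kinase that can phosphorylate class IIa enzymes, fell by 0.42 ± 0.12. In the SNI libraries of this comparison the medium spiny score reached -2.46 and the cortical score lay from -2.22 to 0.28, against -1.26 to 2.27 in sham, and their part in these values was not tested gene by gene. The list's median log2 fold change was -0.07, against 0.01 over all genes.

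Of 43 class I complex subunits, 4 fell and none rose in the same comparison, beside 11.3% of all genes called in either direction. These were the Sin3 subunits Ing2, at -0.43 ± 0.12, and Brms1, at -0.51 ± 0.16, and the NuRD subunits Mta2, at -0.22 ± 0.07, and Mbd3, at -0.21 ± 0.07. The list's median was -0.06, and 34 of its 43 genes had lower fitted values. Among 15 acetyl-lysine readers, Baz2b rose by 0.25 ± 0.08, while Brpf1 fell by 0.23 ± 0.08 and Brpf3 by 0.36 ± 0.12. None of 14 acetyltransferases, 7 sirtuins or 12 cytoplasmic targets of Hdac6 and Hdac8 passed, with 6, 2 and 2 of them at an unadjusted p under 0.05, beside 27.6% of all genes. These counts rest on the same fit, in which no gene was called without SNI DMI replicates 2 and 3.

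Averaged over treatments, Mef2d fell in SNI against sham, at -0.18 ± 0.05 (adjusted p = 0.0483), and no other listed gene passed. This call was lost, as was that of every other gene, with limma-voom, without the filter, in set 1 alone, with the replicate block, with tissue scores as covariates, without SNI DMI replicates 2 and 3, without sham saline replicates 2 and 3, and in 14 of 30 fits that leave out a single library. Whether Mef2d kept its call in the remaining fits, which still called genes, is not reported here. In the 10 other comparisons no listed gene passed. Among these genes, that of smallest p in SNI against sham was Chd4, the NuRD helicase, at -0.27 ± 0.08 on saline (adjusted p = 0.418), and Camk1d at -0.34 ± 0.12 on tianeptine (adjusted p = 1). For tianeptine against saline in SNI mice, the acetyltransferase genes Kat6a, at 0.15 ± 0.04, and Ep300, at 0.16 ± 0.05, were among the genes of smallest p (adjusted p = 1 for each). In sham mice, Ncoa3 was at -0.19 ± 0.06 with tianeptine (adjusted p = 0.714). For desipramine against saline, the smallest p belonged to Chd5, a NuRD helicase of neurons, at 0.35 ± 0.10 averaged over surgeries (adjusted p = 0.212). Within the surgeries, genes of smallest p were Gatad2a at 0.35 ± 0.11 (adjusted p = 0.119) and Camkk1 at -0.31 ± 0.10 (adjusted p = 0.131) in SNI, and Brd1 at -0.12 ± 0.04 (adjusted p = 0.547) in sham.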

How the data were processed

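The authors deposited a table of whole-number read counts per gene and library, made, per the submitters' processing notes, with Trim Galore, HISAT2 on mm10, SAMtools and featureCounts, and per the labels' protocols from TRIzol RNA with a stranded mRNA kit. For versions, strand setting and annotation release, the sources used here give nothing. A deposited FPKM table was not used. IDs were named from GENCODE M21, with 54349 of 55401 matched exactly, 792 without the version and 260 unmatched.

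The counts were tested with edgeR 4.0.16 in R 4.3.3 (filterByExpr, TMM, robust quasi-likelihood fit of all 30 libraries, 1 coefficient per group and a term for the library set). The 23736 genes kept hold 99.925% of counts. P values are 2-sided with Benjamini-Hochberg adjustment across every tested gene within each of 12 comparisons, with a threshold of 0.05. SE is the log2 fold change divided by the root of F. The same fit was tested on simulated counts. Log2 CPM for marker scores used a prior count of 2. Correlations used 100000 permutations. DESeq2 1.42.0 and limma-voom (limma 3.58.1) were alternatives, beside RLE size factors, no filter, no library set term, set 1 alone, the replicate number as a term, tissue scores as covariates and libraries left out.

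All 10 members were named, with values per library for those at an unadjusted p under 0.05 in a comparison. From the 6 partner lists, every passing gene and otherwise up to 3 genes of smallest p per comparison could be named, and the values of some genes are not reported here. Members and lists were chosen with earlier results of these data known. Hdac3 and Hdac11 on saline, and Hdac7 and Hdac9 on tianeptine, are given in addition, chosen after their values were seen.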

Additional observations from a re-analysis of the deposited data

Results flagged for a closer look

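Within the 60 sets of libraries formed by 10 members and 6 groups, 4 held a library far from the others of its group by Dixon's criterion, where chance gives about 1 in 20. In SNI mice on saline, replicate 5 held both the lowest Hdac3 value, 76.3 CPM against 86.6 CPM for the next, and the highest Hdac4 value, 64.8 CPM against 46.9 CPM for the next. This replicate is the group's 1 library of set 2. The set 2 term, fitted in part from this library, was -0.22 for Hdac3 and 0.33 for Hdac4 on the log2 scale. The same library had the highest cortical score of its group, 2.30 against 1.05 for the next, and the part of that score was not tested. In SNI mice on tianeptine, replicate 4 held the highest Hdac5 value, 227 CPM against 191 CPM for the next. It also held the highest Hdac7 value, 73.2 CPM against 51.1 CPM for the next. Its medium spiny score was the lowest of its group, -0.48 against -0.12 for the next. The cortical score of replicate 4 was the highest, 1.77 against 1.67 for the next. The part of these scores in the 2 outlying values is not reported here. No member was called in SNI against sham on tianeptine or in tianeptine against saline with or without this library.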

How the results depend on the processing

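In SNI against sham on desipramine, 2 members passed, with 1 without the filter on low counts, 1 without the library set term, 1 in library set 1 alone, 0 without SNI DMI replicates 2 and 3 and 0 with tissue scores as covariates. Leaving out single libraries gave 0 to 5, with 0 without SNI DMI replicate 2, SNI DMI replicate 3 or sham DMI replicate 4, and 5 without SNI DMI replicate 4. The 2682 genes called there became 1701 without the filter, 0 without SNI DMI replicate 2 and 5903 without SNI DMI replicate 4. The 437 genes of SNI averaged over treatments became 1601 with DESeq2, 0 with limma-voom, 77 without the library set term and 0 to 3756 with single libraries left out, and the 7 of desipramine averaged became 132 with DESeq2. Where no member passed, DESeq2 gave 1 in SNI against sham averaged over treatments and 1 in desipramine averaged over surgeries. Leaving out single libraries gave 0 to 3 in SNI averaged, 0 to 3 in desipramine in SNI and 0 to 1 in desipramine averaged. No log2 fold change with an unadjusted p under 0.05 changed sign in the 40 settings. Within library set 2, r turned to 0.329 for Hdac11 with the medium spiny score, -0.826 for Hdac3 with the oligodendrocyte score, and 0.631 for Hdac2 and -0.203 for Hdac4 with the endothelial score. With the replicate block, 2 members passed in SNI against sham on desipramine and 0 elsewhere. Same-numbered libraries did not deviate together: 16 of 60 pairs had a correlation over 0.1, and 3 of 24 libraries correlated best with their own number. Desipramine has no library in set 2 and 4 mice per group, which limits its precision.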

Other observations

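Scores of other cell types also moved with single members over the 30 libraries. Hdac4 had r = -0.448 and rho = -0.359 with the oligodendrocyte score, and r = 0.426 and rho = 0.383 with the endothelial score (adjusted permutation p of r = 0.0369 and 0.0488). Hdac3 had r = 0.462 and rho = 0.455 with the oligodendrocyte score (adjusted permutation p of r = 0.0351). Hdac2 had r = -0.456 and rho = -0.387 with the endothelial score (adjusted permutation p of r = 0.0351). Without the 2 libraries farthest from the median score, r was -0.478 and 0.342 for Hdac4, 0.344 for Hdac3 and -0.396 for Hdac2. Within library set 1, r was -0.353 and 0.686 for Hdac4, 0.429 for Hdac3 and -0.533 for Hdac2. The relation of the members to the score of cortical excitatory neurons was not tested.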
